A study of Mus musculus with 6 samples.

Results

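Calcium release, uptake and storage in the sarcoplasmic reticulum were followed through 10 genes, Atp2a1, Atp2a2, Sln, Pln, Casq1, Casq2, Ryr1, Cacna1s, Pvalb and Jph1, in gastrocnemius muscle of the calf from aged and young mice. Every probe set that the platform's gene table maps to exactly 1 of these symbols was taken. That gave 20 probe sets, out of 45037 probe sets other than controls and 18193 named genes. Total RNA of 3 samples of aged muscle (replicates 51, 52 and 53) and 3 samples of young muscle (replicates 1, 2 and 3) was hybridised, 1 sample to an Affymetrix mouse array. All mice were male, of the strain spelled C57B1/6 in the labels, with a karyotype given as normal. No treatment or transgene is named, and the labels say aged or young with no number of months. Whether each sample is a separate animal is not stated. The p-values therefore reflect the spread among these 6 samples alone, and that spread may be technical.

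A muscle fibre contracts when calcium leaves the sarcoplasmic reticulum, an internal membrane store, and relaxes when the calcium is pumped back. The dihydropyridine receptor, whose pore subunit is encoded by Cacna1s, senses the voltage of the fibre's surface membrane and opens the release channel Ryr1, and Jph1 holds the 2 membranes together. The pumps are Atp2a1 (SERCA1), the form of fast-twitch fibres, and Atp2a2 (SERCA2), the form of slow-twitch fibres and heart. The small membrane proteins Sln and Pln restrain the pumps. Casq1 and Casq2, the calsequestrins, bind calcium inside the store, and Pvalb, parvalbumin, binds it in the cytosol of fast fibres. The comparison asked which of these transcripts differ between aged and young muscle. Values below are log2 of the array signal, a brightness with no absolute unit, so levels of different probe sets are not set against each other. A change is aged minus young on that scale, given with the standard error of the limma fit and n = 3 per group. A probe set passed when its adjusted p (limma, Benjamini-Hochberg over all tested probe sets) lay below 0.05.

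Atp2a2, the slow-fibre pump, fell in aged muscle and was the only one of the 10 genes to pass. Casq1, Casq2 and Pvalb were lower on every aged array than on every young array but did not pass. The release channel Ryr1, the voltage sensor Cacna1s, the fast-fibre pump Atp2a1, Jph1 and the pump regulators Sln and Pln overlapped between the groups. Of the 20 probe sets 15 were bright enough to be tested, at least 1 for each gene, and 5 were too dim, with a mean log2 signal under 9.08. With 1 of 15 past the test the members stood at 6.67%, beside 1.05% of all 22519 tested probe sets (237, of which 167 or 0.742% were lower and 70 or 0.311% higher in aged muscle). The groups did not overlap for 6 of the 15, all lower in aged muscle, beside 8.74% of all probe sets lower without overlap and 16.2% in either direction. By the brightest tested probe set of each gene the count was 1 of 10, beside 1.39% of 11763 genes. Groups did not overlap for 4 of 10 genes, all lower in aged muscle, beside 9.63% of genes that were lower without overlap. At an unadjusted p under 0.05 the same count was 4 lower and 0 higher, beside 6.6% of genes that were lower at that level (10% of probe sets in either direction). The median change over the 10 genes was -0.24, against 0.0028 over all genes. It was -0.11 over the 4504 brightest tested probe sets, of which 59.5% had a negative change.

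**Figure D1:**
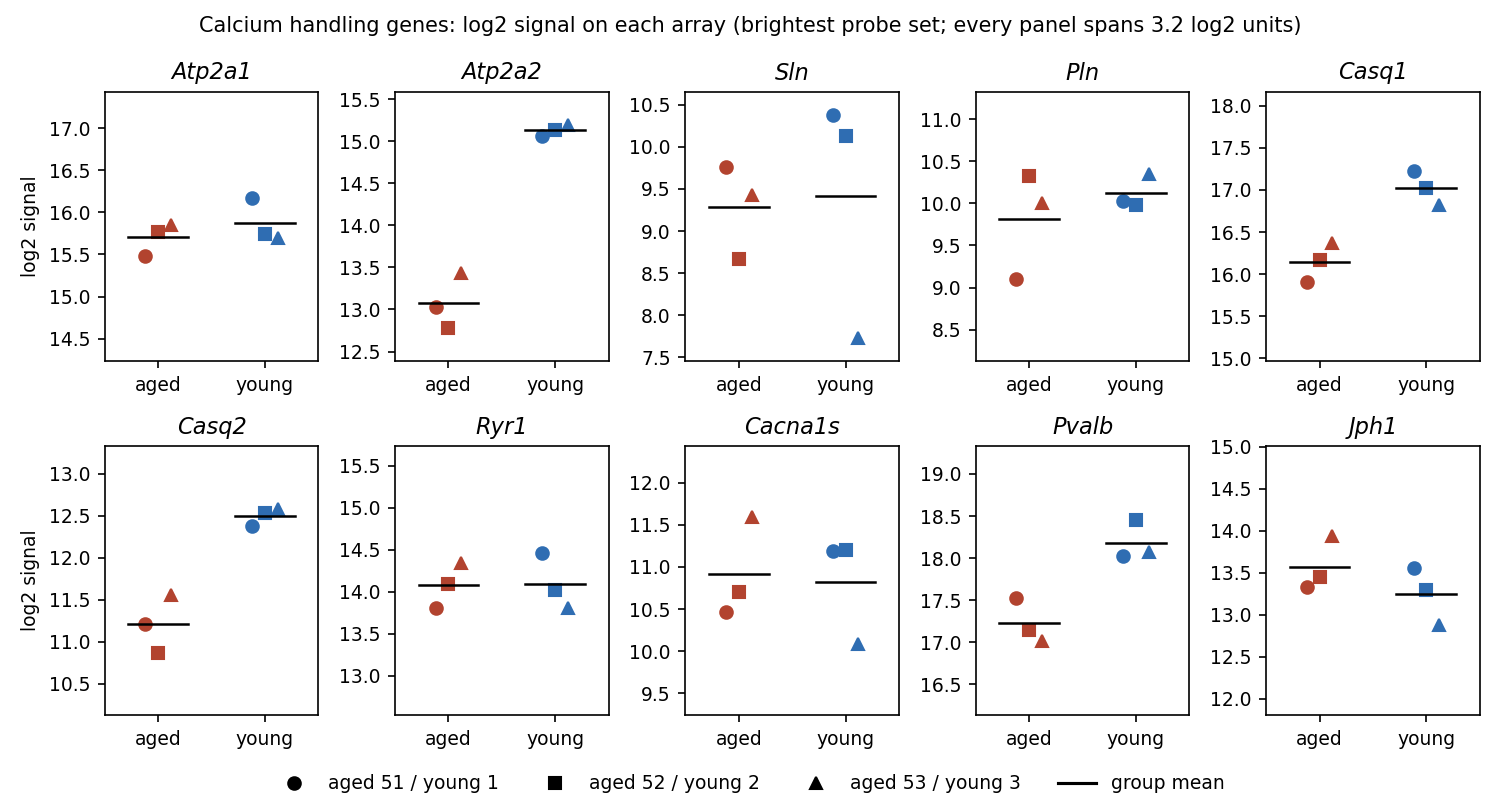
Log2 signal of the brightest probe set of each of the 10 genes on the 3 aged arrays (left in each panel) and the 3 young arrays (right), with a line at each group mean; marker shapes only tell replicates apart. The aged arrays lie below all young arrays for Atp2a2, Casq1, Casq2 and Pvalb, and overlap them in the other panels.

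Median array signals ran from 654 to 833 for aged muscle and from 637 to 730 for young muscle. All 6 skeletal muscle markers examined (Acta1, Ckm, Mb, Eno3, Myot and Neb) passed the filter on dim probe sets, and 0 of them passed the test (limma, 4 lower at an unadjusted p under 0.05). All 6 changes were negative, 4 of them without overlap, and the median was -0.60. The summed signal of these markers was 523522 to 579954 in aged muscle, against 770957 to 882992 in young muscle. The log2 ratio of 3 prime to 5 prime signal of the Gapdh control, a measure of RNA integrity and labelling, was 2.14, 2.15 and 3.05 on aged arrays and 1.66, 1.85 and 1.95 on young arrays, so the groups did not overlap (exact two-sided permutation p = 0.1, the smallest that 3 against 3 allows). Aged replicates 52 and 53 were washed on a second fluidics station under another protocol name, and aged replicate 51 and all young arrays on the first. The 237 calls over all probe sets became 131, 124 and 152 when young replicate 1, 2 or 3 was left out, and 149 when aged replicate 52 was. Without aged replicate 51 there were 250, and without aged replicate 53 there were 342.

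Of the calcium pumps, Atp2a2 is covered by 6 probe sets. On the brightest (1416551_at) the signal was 13.03, 12.78 and 13.43 in aged muscle, against 15.07, 15.13 and 15.19 in young muscle. The groups did not overlap, and the means were 13.08 ± 0.33 in aged muscle and 15.13 ± 0.06 in young muscle (SD, n = 3 each). The change was -2.05 ± 0.22 (limma adjusted p = 0.000664), a 4.14-fold higher signal in young muscle. In total RNA of whole muscle, fewer fibres that carry a transcript and less of it per fibre cannot be told apart. The call held with each array left out in turn (-2.22 to -1.90). Within the first fluidics station the 1 aged array differed from the 3 young ones by -2.10, a value with no spread among aged samples behind it. With the ratio of 3 prime to 5 prime signal as a covariate the change was -2.40 (limma adjusted p = 0.002). It did not pass when eBayes used no trend with brightness (limma adjusted p = 0.179) or in an unmoderated linear model (adjusted p = 0.166).

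The other Atp2a2 probe sets differed among themselves. On 1452363_a_at the signal was 11.998, 8.75 and 10.12 in aged muscle and 12.54, 12.86 and 12.65 in young muscle. Every aged value was the lower, with aged replicate 51 close to the young arrays, and the change of -2.40 ± 0.62 did not pass (limma adjusted p = 0.127). It turned on single arrays: without aged replicate 51 it passed at -3.25 (limma adjusted p = 0.00325), without aged replicate 52 it was at -1.62 (limma adjusted p = 0.291), and with any other array left out it did not pass (limma adjusted p 0.171 to 0.365). Without the filter on dim probe sets, where 0.588% of 45037 probe sets were called, it passed (limma adjusted p = 0.0443). On 1427250_at the signal was 12.70, 11.98 and 13.09 in aged muscle and 13.44, 13.25 and 13.27 in young muscle, again without overlap, with a change of -0.73 ± 0.29 that did not pass (limma adjusted p = 0.418) and was at -0.42 without aged replicate 52. The other 3 lay below the filter. Of these, 1437797_at had 7.54, 7.03 and 7.53 in aged muscle and 10.07, 10.13 and 9.68 in young muscle, so only the aged arrays were dim. Without the filter its change was -2.59 ± 1.03 (limma adjusted p = 0.495), a size that rests on aged values under the filter's level. The remaining pair, 1427251_at and 1443551_at, overlapped between the groups, with changes of 1.77 ± 1.14 and 0.00 ± 1.32 without the filter. All 3 tested probe sets of Atp2a2 were thus lower in aged muscle without overlap, and 1 of them passed. The part of the transcript that each probe set reads is not given in the files, so isoforms of Atp2a2 were not told apart here.

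Atp2a1, the fast-fibre pump, had a signal of 15.49, 15.77 and 15.85 in aged muscle and 16.18, 15.74 and 15.69 in young muscle. The groups overlapped, and the change was -0.17 ± 0.22 (limma adjusted p = 0.825). Its 95% interval ran from -0.64 to 0.30, so a fall of the size seen for Atp2a2 lay outside it.

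**Figure D2:**
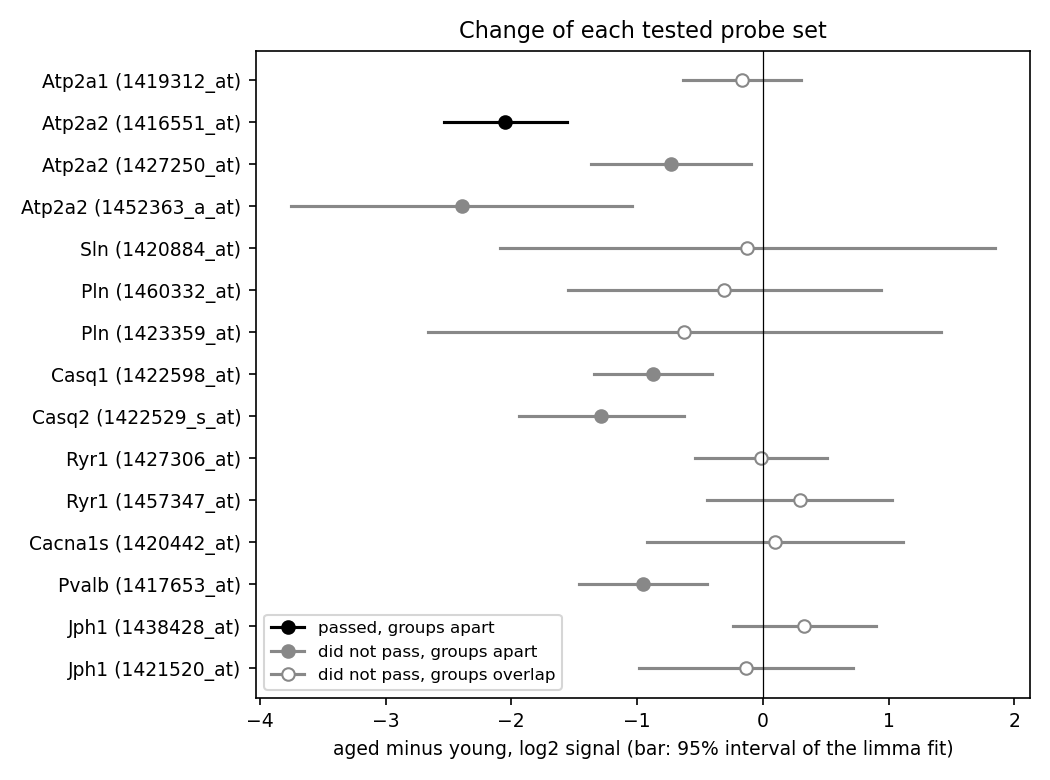
Change (aged minus young, log2 signal) of the 15 tested probe sets, with 95% intervals of the limma fit; black marks the one that passed, filled grey those whose groups did not overlap without passing, and open circles those that overlapped. The 6 filled points all lie left of 0, and the widest intervals are those of the dimmer Pln probe set and of Sln.

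Within each array the Atp2a2 signal was divided by the Atp2a1 signal, and only the change of this ratio between arrays was read. The log2 ratio was -2.46, -2.99 and -2.41 in aged muscle, against -1.11, -0.61 and -0.50 in young muscle. Every aged array lay below every young one, and the ratio was 3.68-fold higher in young muscle (difference -1.88, exact two-sided permutation p = 0.1, the smallest this design allows, 0.133 after Benjamini-Hochberg adjustment over 4 ratios). With all tested probe sets of each gene averaged the difference was -1.56. The ratio of the calsequestrins behaved otherwise. Casq2 over Casq1 was -4.70, -5.30 and -4.81 in aged muscle and -4.84, -4.49 and -4.24 in young muscle on the log2 scale. These overlapped, and the difference of -0.41 (-0.23 without aged replicate 52, -0.27 without young replicate 3 and -0.17 in the first station) did not reach the smallest p (exact two-sided permutation p = 0.3, adjusted p = 0.3).

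The same was computed for 2 pairs of contractile genes. Myh7, the slow myosin heavy chain, over Myh4, the heavy chain of type 2B fibres, was at -11.08, -7.59 and -11.36 in aged muscle and -5.78, -5.33 and -5.33 in young muscle. Myh7 itself was under the filter's level on aged replicates 51 and 53 (8.34 and 7.72), so the size of that difference, -4.53, is not well measured. Tnnc1, the slow and cardiac troponin C, over Tnnc2, the fast form, was at -9.38, -8.61 and -8.78 in aged muscle and -5.72, -6.40 and -6.04 in young muscle, a difference of -2.87. Neither pair overlapped between the groups (exact two-sided permutation p = 0.1, adjusted p = 0.133, for each).

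**Figure D3:**
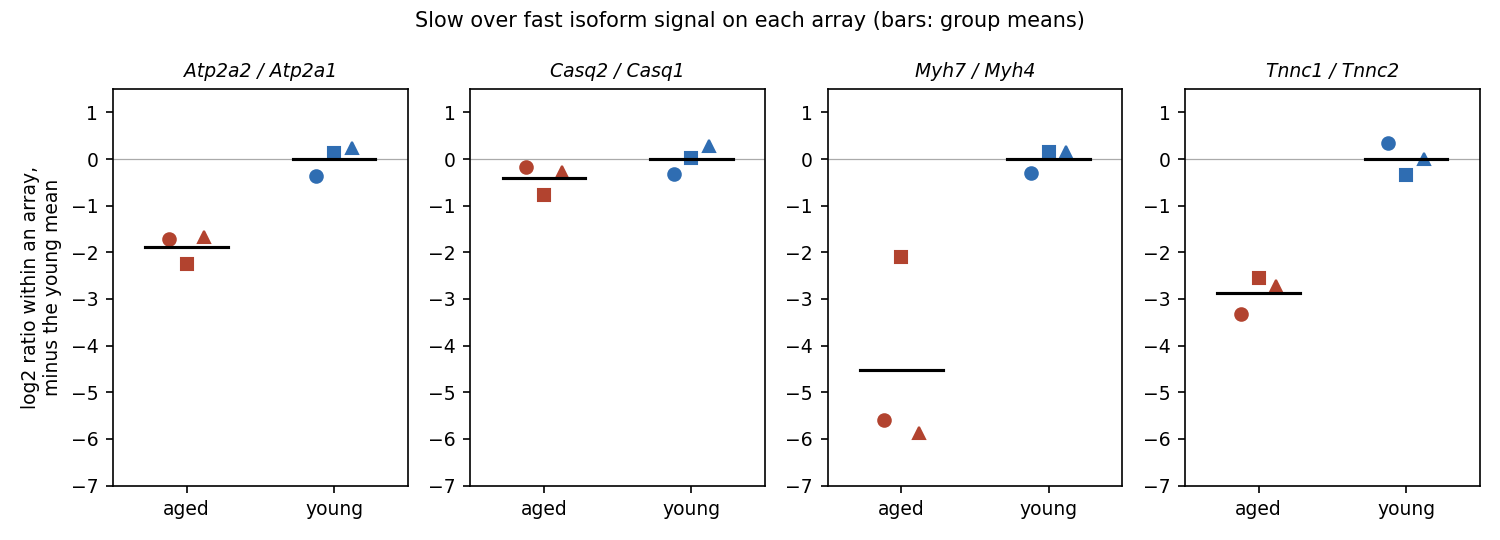
Within-array log2 ratio, minus the young mean, of Atp2a2 over Atp2a1, Casq2 over Casq1, Myh7 over Myh4 and Tnnc1 over Tnnc2. Aged arrays are on the left of each panel and lines are group means. The pump ratio lies 1.88 lower in aged muscle without overlap, while the calsequestrin ratio overlaps.

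Markers of slow-twitch fibres moved with Atp2a2. Of 8 (Myh7, Tnnt1, Tnni1, Tnnc1, Myl2, Myl3, Tpm3 and Myoz2) 6 fell, Tpm3 and Tnni1 did not pass, all 8 were lower without overlap, and the median change was -3.35. Tnnt1 and Tnni1 had aged means under the filter's level (8.29 and 8.56) and were tested only because the young arrays were bright, so they had to be lower. Of the 5 markers at or above that level on every aged array, a choice made after seeing the data that leaves out the markers dimmest in aged muscle, 4 fell, with a median of -3.00. The summed signal of all 8 markers was 20526 to 22113 in aged muscle, against 128265 to 157513 in young muscle. Atp2a2 lay lower by less than the 8 markers did on average. Its log2 signal minus the mean of all 8 was 2.94, 2.11 and 2.88 in aged muscle and 1.497, 1.37 and 1.37 in young muscle. The same difference for Casq2 was 1.12, 0.20 and 1.00 in aged muscle, against -1.19, -1.24 and -1.24 in young muscle. Against those 5 markers alone the aged minus young difference was 0.78 for Atp2a2, beside 1.23 with all 8, and 1.55 for Casq2, beside 2.00. Both genes' differences were higher on every aged array with either set; they were chosen after the values were seen and were not tested. Of 10 fast-twitch markers 2 fell (Myh2 and Myl1) and 8 did not pass. All 10 changes were negative, 7 of them without overlap, and the median was -0.58. Their summed signal was 2176100 to 2613922 in aged muscle and 3065701 to 3837340 in young muscle.

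Other tissues that express Atp2a2, Pln or Casq2 were examined through their own markers. Of 7 heart muscle markers 5 (Ryr2, Mybpc3, Myl7, Nppa and Tnni3) were below the filter, and the other 2 (Myh6 and Nppb) overlapped between the groups, with a summed signal of these 2 of 1611 to 3492 in aged and 504 to 2629 in young muscle. Of 6 smooth muscle markers 4 were below the filter, among them the defining Myh11 and Cnn1, and Acta2 was lower in aged muscle (-1.004, limma adjusted p = 0.028), with a summed signal of the tested pair of 27550 to 29578 in aged and 50672 to 61034 in young muscle. All 6 fibroblast and tendon markers fell, with a summed signal of 61085 to 81940 in aged and 719469 to 945244 in young muscle, and so did both tested nerve markers, at 7388 to 10471 in aged and 42476 to 78249 in young muscle. Of 5 tested fat cell markers 3 rose, with a sum of 149869 to 255188 in aged and 73426 to 85411 in young muscle. Of 4 tested macrophage markers 0 passed (limma, 0 at an unadjusted p under 0.05). The part of these fibre and cell types in the changes of the calcium genes was not tested.

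The pump regulators were dim and variable. Sln, sarcolipin, has 2 probe sets, and the tested one gave 9.76, 8.67 and 9.43 in aged muscle and 10.38, 10.13 and 7.73 in young muscle. The aged values lay inside the range of the young ones. The change of -0.12 ± 0.90 (limma adjusted p = 0.975) had a 95% interval from -2.09 to 1.84. The second probe set was below the filter at 6.44, 9.25 and 6.50 in aged muscle and 5.87, 5.99 and 6.56 in young muscle. Pln, phospholamban, has 3 probe sets. The brightest gave 9.10, 10.33 and 10.01 in aged muscle and 10.03, 9.98 and 10.35 in young muscle, a change of -0.31 ± 0.57 (limma adjusted p = 0.883). The next gave -0.62 ± 0.94, with aged replicate 53 at 7.05 and the other arrays between 9.26 and 10.43. The third, below the filter, was at 8.08, 9.40 and 7.31 in aged muscle and 8.60, 8.69 and 8.95 in young muscle. Changes of this size were therefore not resolved for either regulator.

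The calcium stores and buffers were lower in aged muscle without passing. Casq1 was at 15.91, 16.17 and 16.37 in aged muscle, against 17.22, 17.02 and 16.83 in young muscle. Its change was -0.87 ± 0.22 (limma adjusted p = 0.104), a 1.83-fold higher signal in young muscle. Casq2, the cardiac and slow-fibre form, was at 11.21, 10.87 and 11.56 in aged muscle, against 12.38, 12.53 and 12.58 in young muscle, a change of -1.28 ± 0.30 (limma adjusted p = 0.0842) or 2.43-fold. Its probe set is of a kind prone to cross-hybridisation. Pvalb was at 17.52, 17.15 and 17.02 in aged muscle, against 18.03, 18.45 and 18.07 in young muscle, a change of -0.95 ± 0.24 (limma adjusted p = 0.104) or 1.94-fold. All 3 genes lay lower on each aged array than on any young array. Without aged replicate 53 both calsequestrins passed (Casq1 -0.98, limma adjusted p = 0.0273, and Casq2 -1.46, limma adjusted p = 0.037), which makes 3 of the 10 genes. Calls over all 22519 tested probe sets rose as well, from 237 to 342, when that array was left out. Within the first station the changes were -1.11 for Casq1, -1.29 for Casq2 and -0.66 for Pvalb, and after quantile normalization they were -0.69, -1.31 and -0.78. Set against the mean of the fast-twitch markers, neither Casq1 (difference -0.17) nor Pvalb (difference -0.25) lay apart in the groups, since aged and young arrays overlapped for both. For Atp2a1 the same difference was 0.54, also with overlap.

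For these 3 genes the 250 bases before the transcription start are shown, since they lay lower together. Of the 10 genes 7 were matched in the RefSeq promoter table used here (GRCm38.p6), and Atp2a2, Sln and Jph1 were not. Capitals mark E-boxes (CANNTG, bound by myogenic factors) and matches to the MEF2 motif, both searched on either strand, and each sequence runs 5′ to 3′ along the gene. The windows are chr3:102086165-102086414 on the plus strand for Casq2, chr1:172219896-172220145 on the minus strand for Casq1 and chr15:78206401-78206650 on the minus strand for Pvalb, which has a second annotated start.
Casq2: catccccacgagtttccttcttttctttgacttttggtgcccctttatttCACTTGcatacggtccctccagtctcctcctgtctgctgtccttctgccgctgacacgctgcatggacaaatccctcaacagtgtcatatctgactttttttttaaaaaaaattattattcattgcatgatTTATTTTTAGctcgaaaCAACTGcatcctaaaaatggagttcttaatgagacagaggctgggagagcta
Casq1: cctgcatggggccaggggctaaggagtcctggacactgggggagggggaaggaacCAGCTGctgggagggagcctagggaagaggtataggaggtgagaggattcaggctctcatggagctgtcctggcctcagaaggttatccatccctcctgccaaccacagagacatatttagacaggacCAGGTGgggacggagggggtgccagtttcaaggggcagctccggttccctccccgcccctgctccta
Pvalb: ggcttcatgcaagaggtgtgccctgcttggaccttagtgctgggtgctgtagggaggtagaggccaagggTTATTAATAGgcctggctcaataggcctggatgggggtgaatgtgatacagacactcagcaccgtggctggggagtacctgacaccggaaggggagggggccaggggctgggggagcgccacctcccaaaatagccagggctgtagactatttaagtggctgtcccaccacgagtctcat
The Casq2 window held 2 E-boxes and 1 MEF2 match that begins 69 bases before the start. The Casq1 window held 2 E-boxes and no MEF2 match, and the Pvalb window 1 MEF2 match, 180 bases before the start, and no E-box. The window of the second Pvalb start, chr15:78204238-78204487 on the minus strand, held 1 E-box and no MEF2 match. Among members whose groups overlapped, the windows of Atp2a1, Cacna1s and Pln held 1, 2 and 1 E-boxes. The Ryr1 window held no E-box, and none of these windows held a MEF2 match. The MCAT, TATA and CArG motifs were also searched and had no match in the windows of Casq1, Casq2 and Pvalb. Of all 32851 such windows 66.2% held an E-box and 2.92% a MEF2 match. A match is a string of letters and does not show that a factor binds there.

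The release machinery did not differ detectably. Ryr1 was at 13.81, 14.10 and 14.35 in aged muscle and 14.46, 14.03 and 13.81 in young muscle on its brighter probe set. The change of -0.01 ± 0.24 (limma adjusted p = 0.992) had a 95% interval from -0.54 to 0.51, and the other probe set was at 0.29 ± 0.34. Cacna1s was at 10.46, 10.70 and 11.60 in aged muscle and 11.18, 11.20 and 10.08 in young muscle, with overlap and a change of 0.10 ± 0.47 (limma adjusted p = 0.959). Both signs turn with the scaling: after quantile normalization Ryr1 was at 0.12 and Cacna1s at -0.013. Jph1 was at 13.33, 13.45 and 13.94 in aged muscle and 13.56, 13.30 and 12.87 in young muscle, a change of 0.33 ± 0.26 (limma adjusted p = 0.709), while its dimmer probe set pointed the other way at -0.13 ± 0.39. The intervals of Ryr1 leave out a 2-fold difference on the brighter probe set, and those of Cacna1s do not.

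Of 53 other genes of calcium release, uptake, buffering and signalling 47 had a named probe set and 44 were tested. Of these 3 fell, 0 rose and 41 did not pass (limma; at an unadjusted p under 0.05 there were 9 lower and 0 higher), beside 1% of all genes that fell. Their median change was -0.05, with 24 negative and 20 positive, and 13 did not overlap between the groups, beside 17.2% of all genes in either direction. Tnnc1, the calcium sensor of slow and cardiac thin filaments, was at 9.97, 10.43 and 10.14 in aged muscle, against 13.28, 13.14 and 13.13 in young muscle (-3.00 ± 0.30, limma adjusted p = 0.000334). It is also one of the slow-fibre markers above, so its fall is not separate from theirs. Rcan1, an inhibitor of the calcium-activated phosphatase calcineurin, was at 11.82, 11.40 and 11.94 in aged muscle, against 13.16, 13.22 and 13.09 in young muscle (-1.43 ± 0.26, limma adjusted p = 0.0191). On its other probe set the change was -0.60 (limma adjusted p = 0.876), and the call was lost without young replicate 1, 2 or 3 or aged replicate 52 (limma adjusted p 0.088 to 0.131). Sypl2, a protein of the triad membrane, was at 13.31, 13.67 and 13.47 in aged muscle, against 14.92, 14.65 and 14.86 in young muscle (-1.33 ± 0.21, limma adjusted p = 0.0069), and its call was lost without young replicate 1 or 3 (limma adjusted p = 0.0582 and 0.0532). With the ratio of 3 prime to 5 prime signal as a covariate Rcan1 was at -1.63 (limma adjusted p = 0.0973) and Sypl2 at -1.30 (limma adjusted p = 0.0948), so both missed the threshold with changes of similar or larger size than without it, and Rcan1 did with the station as a covariate (-1.34, limma adjusted p = 0.116).

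The 4 brightest of the genes that did not pass all overlapped between the groups. Tnnc2 was at -0.13 ± 0.26, the junctional protein Trdn (triadin) at -0.15 ± 0.23, and the histidine-rich calcium-binding protein Hrc at -0.31 ± 0.20. Sarcalumenin, Srl, a calcium-binding protein of the store, was at -0.56 ± 0.27, with aged values of 15.55, 15.15 and 16.26 and young values of 16.21, 16.16 and 16.27. The aged array nearest the young ones was replicate 53. Without that array, where 342 of all 22519 probe sets passed beside 237 with every array, 6 genes of the 44 passed, all lower in aged muscle. Beside Tnnc1, Rcan1 and Sypl2 these were Srl, Asph, which encodes junctin among other products, and the chaperone Canx, which were chosen after their values were seen. With young replicate 1 or 3 left out 1 gene passed, Tnnc1.

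**Figure D4:**
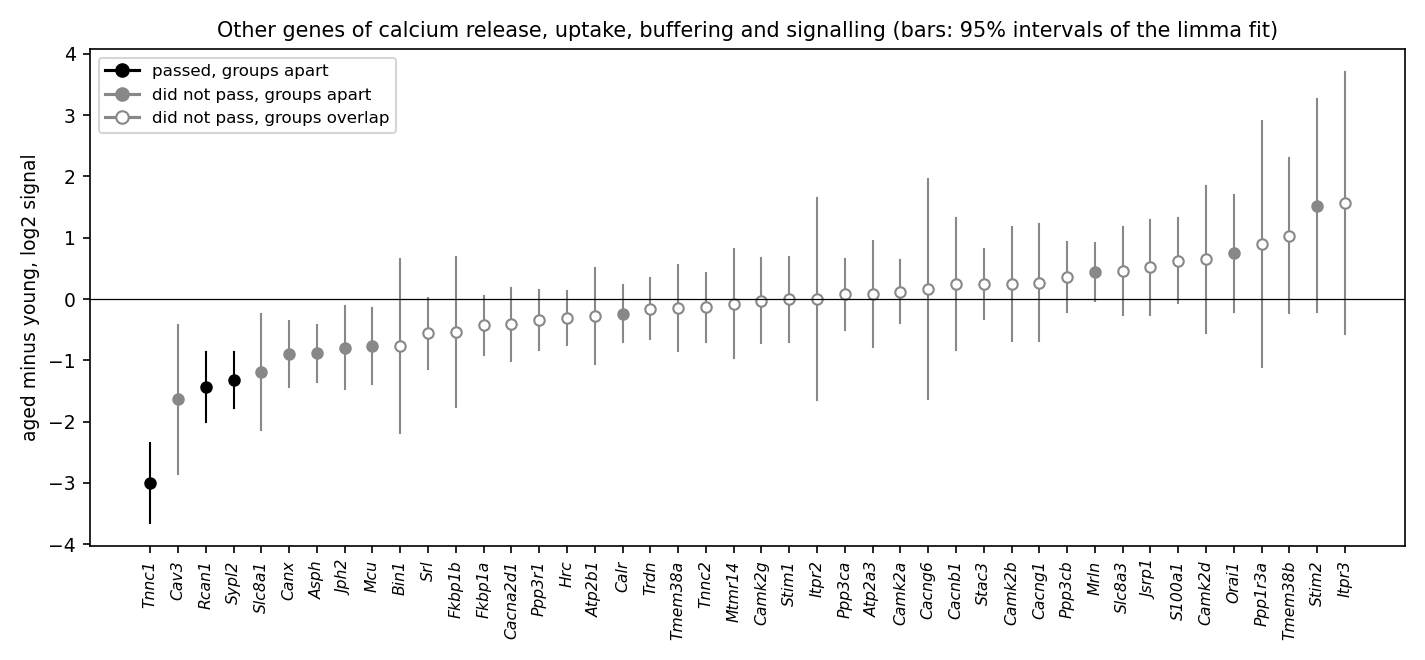
Change (aged minus young, log2 signal) of the 44 other calcium genes in rising order, 1 probe set each, with 95% intervals of the limma fit; black marks genes that passed, filled grey those whose groups did not overlap without passing, and open circles those that overlapped. Tnnc1, Rcan1 and Sypl2 passed, at -3.00, -1.43 and -1.33.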

How the data were processed

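The authors deposited 1 linear intensity per probe set and array, which MAS5 produced, per the submitters' processing notes, with version and settings not given there. The mean of each array trimmed by 2% at each end was 1500, so arrays had been scaled to it. Run settings deposited with each array were read for the fluidics station and the protocol name only. Intensities were taken to log2, and 64 control probe sets and the dimmer part of the rest, with a mean log2 signal under the median of 9.08 (540 on the linear scale), were left out. The age groups were contrasted in limma 3.58.1 (R 4.3.3) by lmFit and eBayes with trend, two-sided, with adjustment over all 22519 tested probe sets. The median change over all of them was 0.0079, -0.02 after quantile normalization and -0.11 after median centring. A gene was represented by its brightest tested probe set. Ratios were compared with exact permutation tests. Gene symbols came from a table of the platform, with 34945 probe sets of 1 symbol, 932 of several, which stayed unnamed, and 9160 not listed there. The members, lists, alternatives and tests were chosen with earlier results of these data known. The text names all members, other calcium genes that passed, the 4 brightest that did not, and markers; others are said to be chosen after their values were seen. The main limma fit was tested on simulated arrays with independent noise. No pair of arrays was a duplicate: at most 0.00222% of probe sets had identical values in a pair. The number of arrays limits the precision.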

Additional observations from a re-analysis of the deposited data

How the results depend on the processing

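The 10 genes were recomputed with a pseudocount of 219 (25th percentile of signals), quantile normalization, array weights, median centring, a stricter filter and none, each array left out, the station as a covariate or the first station alone, the 3 prime to 5 prime ratio as a covariate, other forms of eBayes, no cross-hybridising kinds of probe set, and probe sets averaged. Atp2a2 stayed negative in all 20 (-2.40 to -1.72). The filters, the forms of eBayes, the unmoderated model and the removal of cross-hybridising kinds cannot move its change, only its p-value. The station as a covariate and the first station alone give the same change. The stricter filter removed Sln and Pln, and 3 of the 8 genes left passed (Atp2a2, Casq2 and Pvalb), beside 270 of all 11260 probe sets kept. Leaving out probe sets prone to cross-hybridisation removed Casq2. Of the 10 genes 2 passed with robust eBayes (Atp2a2 and Pvalb), and 0 without the trend and 0 in the unmoderated linear model, where 4 had an unadjusted p under 0.05 in each (limma with the trend called 1). With 1 array left out 1 to 3 passed. Of the 44 other calcium genes 1 passed without the trend and with the ratio covariate, 0 in the unmoderated model (8 unadjusted; limma with the trend called 3), and 1 to 6 with an array left out. Over all probe sets the counts were 365 in the first station, where the young arrays alone supply the spread, 129 with the ratio covariate, 21 without the trend, 0 in the unmoderated model (1985 unadjusted), 136 without probe sets prone to cross-hybridisation, and 124 to 342 with an array left out. The pump ratio was at -1.56 with probe sets averaged, and kept its sign throughout, as did the calsequestrin ratio (-0.62 to -0.17), for which leaving out probe sets prone to cross-hybridisation gave no value. Median centring cannot move a ratio within an array. Averaging could not move the calsequestrin ratio, nor leaving out cross-hybridising kinds the pump ratio. Changes near 0 turned sign without passing. Ryr1 was at 0.12 after quantile normalization, 0.0019 with array weights, 0.14 with probe sets averaged and -0.16 to 0.17 with an array left out. Cacna1s was at -0.013 after quantile normalization, -0.017 after median centring, -0.36 with the station and in the first station, -0.40 with the ratio covariate and -0.27 to 0.33 with an array left out. Sln was at 0.35 with the station and in the first station, 0.13 with the ratio covariate and -0.97 to 0.36 with an array left out. Pln was at -1.02 with the station and in the first station, and at -0.57 to 0.048 with an array left out. The cause was not tested for any of these. No paired analysis was possible because the aged and young groups share no replicate number. The signal over background limits Sln and Pln, whose 95% intervals reach past a 2-fold fall.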
